A study of Mus musculus with 13 samples.

Results

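Eosinophils of the lung were compared with eosinophils of the spleen, the 2 peripheral organs of a study of thymic eosinophils, across all genes of its RNA-seq table. The 6 libraries are all those labelled WT lung (3) and WT spleen (3), of 13 libraries in the series. Both groups came from untreated adult wild-type C57BL/6N mice and carried no transgene or deletion. Cells were enriched on Siglec-F and sorted as CD11b+ Siglec-F+ cells, so that Siglecf and Itgam belong to the gate and are no finding; in its flow cytometry the study took eosinophils to be also negative for Thy1 and MHC class II. Lung tissue was digested with a collagenase mixture and DNase, and spleen was mashed between glass slides, so a difference of organ and one of tissue preparation cannot be told apart here. The 3 WT thymus libraries, which were digested like lung, entered the same fit, its filter and its estimate of the spread. Thymus levels are set beside the comparison as a description only. The labels do not say whether replicates came from separate mice, so p-values measure the spread between these libraries.

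Eosinophils are granulocytes that mature in bone marrow under interleukin-5 and then settle in tissues, where they release granule proteins, cytokines and lipid mediators. Their tissue forms are usually told apart by surface proteins and by gene expression. Immediate early genes, such as Fos and Egr1, encode transcription factors and feedback regulators whose mRNA appears within minutes of many stimuli without new protein synthesis. They are induced by cytokines and growth factors and also by the handling of cells.

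Expression is given as RPKM, reads per kilobase of transcript, scaled to the total of the library. Totals recovered from these values were 5291157 to 5776962 reads in lung and 4765122 to 6022545 reads in spleen. The libraries do not fall evenly into their groups. Mitochondrially encoded genes took 5.29, 5.03 and 6.02% of RPKM in lung replicates 1, 2 and 3, against 4.52, 2.98 and 22.0% in spleen replicates 1, 2 and 3, and this share did not differ by an exact permutation test (two-sided p = 1.0, where 0.10 is the smallest possible with 3 against 3). Spleen replicate 3 also had 18344 RPKM of S100a8, an alarmin of neutrophils, where the other spleen libraries had 16.2 and 12.6. The summed level of 16 neutrophil genes was 16765 to 20914 RPKM in lung and 12624 to 51374 RPKM in spleen, of which Retnlg, a resistin-like gene, was the larger share in every library except spleen replicate 3. Replicate 3 of both organs stands apart from replicates 1 and 2, and results that rest on it are given with and without it.

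In the fit of all 9 wild-type libraries by limma on log2(RPKM + 1), 9096 genes were tested. Lung eosinophils had higher expression of 56 genes (0.616% of those tested) and lower expression of 8 genes (0.088%), together 0.704%, at an adjusted p under 0.05 and a change of more than 1 on the log2 scale. The genes higher in lung included 9 immediate early genes and 17 genes of lung endothelial, epithelial, mesenchymal and vascular lists. Of the 8 genes lower in lung, 3 were on the B cell list and 1 on the red pulp macrophage list. The median change of all genes tested was 0.07 on the log2 scale, and 515 genes had an unadjusted p under 0.05. Over all genes tested, every lung library was above every spleen library for 4.23% and below for 6.38%. With the replicate number as a block, 70 genes were higher (0.77%) and 14 lower (0.154%), and 63 of the 64 calls remained. Id3 lost its call under the block (adjusted p = 0.0627). Without spleen replicate 3, 63 genes were higher (0.698%) and 27 lower (0.299%), among them 47 of the 56 and 3 of the 8, and the other 5 of the 8 failed the filter. Leaving out a thymus library gave 34 to 36 higher and 3 or 4 lower genes, leaving out spleen replicate 1 or 2 gave 22 higher and 2 or 3 lower, and leaving out lung replicate 1, 2 or 3 gave 11, 11 and 14 higher and 1, 1 and 4 lower. Of the 64 genes, 34 no longer passed the filter of 1 RPKM in 3 libraries once a lung library was missing. When the 6 lung and spleen libraries were fitted alone, without the thymus, 12 of the 64 calls remained.

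**Figure D1:**
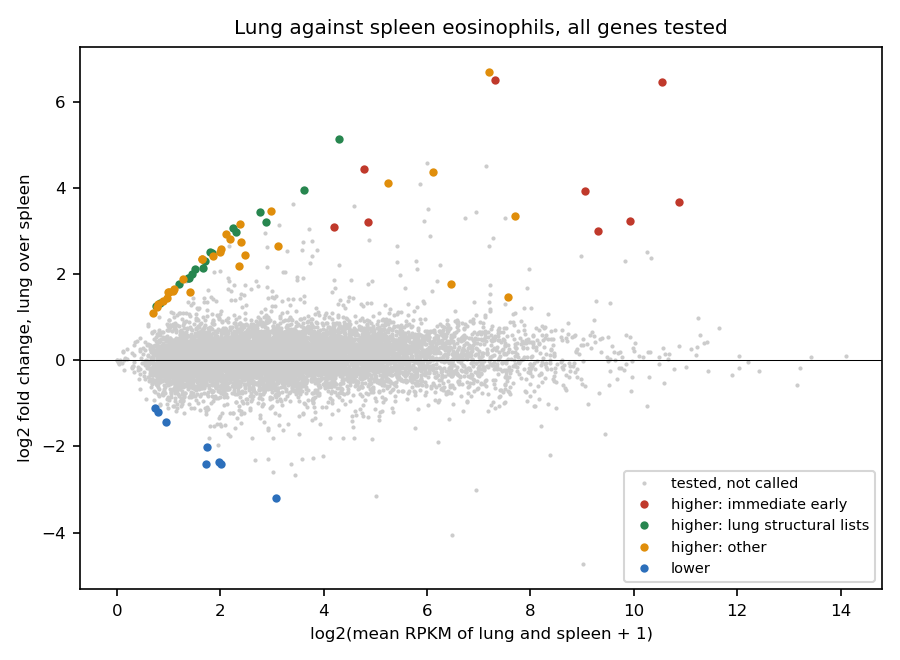
Log2 fold change of lung over spleen against mean expression for the 9096 genes tested, 1 point a gene, with the 64 called genes coloured by gene list. Immediate early genes reach the highest expression among the called genes, with changes up to 6.49. The lung structural genes lie toward the low end, with Scgb1a1 at a level like that of Egr2. The lowest called value is -3.20 for Ly6d.

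The immediate early genes were the set with the highest expression among the calls. Of 26 listed, 25 were tested, and 9 were higher in lung (Egr1, Fos, Fosb, Zfp36, Dusp1, Junb, Ier3, Egr2 and Ier2) and 0 lower, where 0.616% of all genes were called higher. The fitted change was positive for 24 of the 25. Every lung library was above every spleen library for 19 of the 25, and for 4.23% of all genes tested. None of the 25 needed the lung libraries to reach the filter. The median change of the list was 2.65 on the log2 scale, or 2.74 with Fosl1, which was listed at 0 in spleen, at its bound, against 0.07 for all genes. The summed level of the list was 13564, 17616 and 13348 RPKM in lung replicates 1, 2 and 3, against 1844, 1926 and 1894 RPKM in spleen replicates 1, 2 and 3.

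Fos (chromosome 12, 85473890 to 85477273, mouse genome GRCm38), a subunit of the transcription factor AP-1, had 2999, 3881 and 2017 RPKM in lung and 25.6, 38.1 and 32.6 RPKM in spleen. The lowest lung value of Fos was thus far above the highest spleen value. The mean was 2966 ± 932 RPKM in lung and 32.1 ± 6.29 RPKM in spleen (SD, n = 3 each), a log2 fold change of 6.45 ± 0.32 (SE) with an adjusted p of 3.07e-05. Its partner Junb (chromosome 8, 84974484 to 84978718) had 1327, 2126 and 1823 RPKM in lung and 198, 197 and 155 RPKM in spleen, a log2 fold change of 3.24 ± 0.27 (adjusted p = 0.000553). Fosb, a paralog of Fos, was at 18.9, 57.7 and 77.1 RPKM in lung and 0.407, 0.527 and 3.22 RPKM in spleen (log2 fold change 4.43, adjusted p = 0.00781). The zinc-finger factor Egr1 had 272, 529 and 139 RPKM in lung and 3.36, 3.07 and 0.562 RPKM in spleen (log2 fold change 6.49 ± 0.53, adjusted p = 0.000509). All of these factors were separated between the organs in every library, and Egr1 had the largest change of the list. The related Egr2 was at 29.3, 59.9 and 8.84 RPKM in lung and 2.82, 2.64 and 1.11 RPKM in spleen (log2 fold change 3.09, adjusted p = 0.0488).

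Feedback regulators and other early response genes were also higher in lung. Dusp1 (chromosome 17, 26505590 to 26562128), a phosphatase that switches off MAP kinases, had 4169, 4150 and 2075 RPKM in lung and 187, 355 and 258 RPKM in spleen. It had the highest mean level of the list in lung, and its log2 fold change was 3.67 ± 0.36 (adjusted p = 0.00162). Zfp36 (chromosome 7, 28376784 to 28380253), which encodes tristetraprolin, a protein that destabilises cytokine mRNA, had 834, 1247 and 892 RPKM in lung and 77.1, 61.9 and 52.3 RPKM in spleen (log2 fold change 3.93 ± 0.27, adjusted p = 0.000202). Ier2 was at 1072, 1652 and 675 RPKM in lung and at 134, 132 and 132 RPKM in spleen (log2 fold change 2.99, adjusted p = 0.00348). Ier3 was at 20.5, 24.7 and 113 RPKM in lung and at 2.42, 3.52 and 4.08 RPKM in spleen (log2 fold change 3.21, adjusted p = 0.0385), with lung replicate 3 far above the others.

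Other members had the same direction without a call. Btg2, an antiproliferative regulator, had 1032, 1755 and 3538 RPKM in lung and 268, 260 and 505 RPKM in spleen (log2 fold change 2.50, adjusted p = 0.0571), and Jund was at 351, 454 and 307 RPKM in lung and 153, 130 and 74.5 RPKM in spleen (log2 fold change 1.67, adjusted p = 0.181). Both were called with the replicate block, at adjusted p = 0.00766 for Btg2 and 0.0295 for Jund. Jun had 34.4, 68.8 and 41.5 RPKM in lung and 2.74, 2.92 and 21.1 RPKM in spleen (adjusted p = 0.122), and Atf3 had 2.57, 7.45 and 127 RPKM in lung and 0.477, 0.54 and 0 RPKM in spleen (adjusted p = 0.374). The receptor-like factor Nr4a1 had 11.4, 26.3 and 803 RPKM in lung and 13.4, 11.0 and 5.37 RPKM in spleen, so that its difference lay in lung replicate 3 (adjusted p = 0.912). Myc was the member with a negative fitted change, at 21.3, 13.7 and 12.03 RPKM in lung and 73.4, 75.7 and 7.57 RPKM in spleen (adjusted p = 0.933). The count of 9 was 10 without spleen replicate 3, 8 without lung replicate 3 and 6 without lung replicate 2, and 7 without each other library. Fos, Junb, Egr1, Dusp1, Zfp36 and Ier2 were called in all 9 of these fits, whereas Fosb, Ier3 and Egr2 were not, with adjusted p up to 0.0762, 0.188 and 0.295. In replicates 1 and 2 alone, 15 of 23 tested members were higher, among 0.922% of all genes, and Myc was lower.

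**Figure D2:**
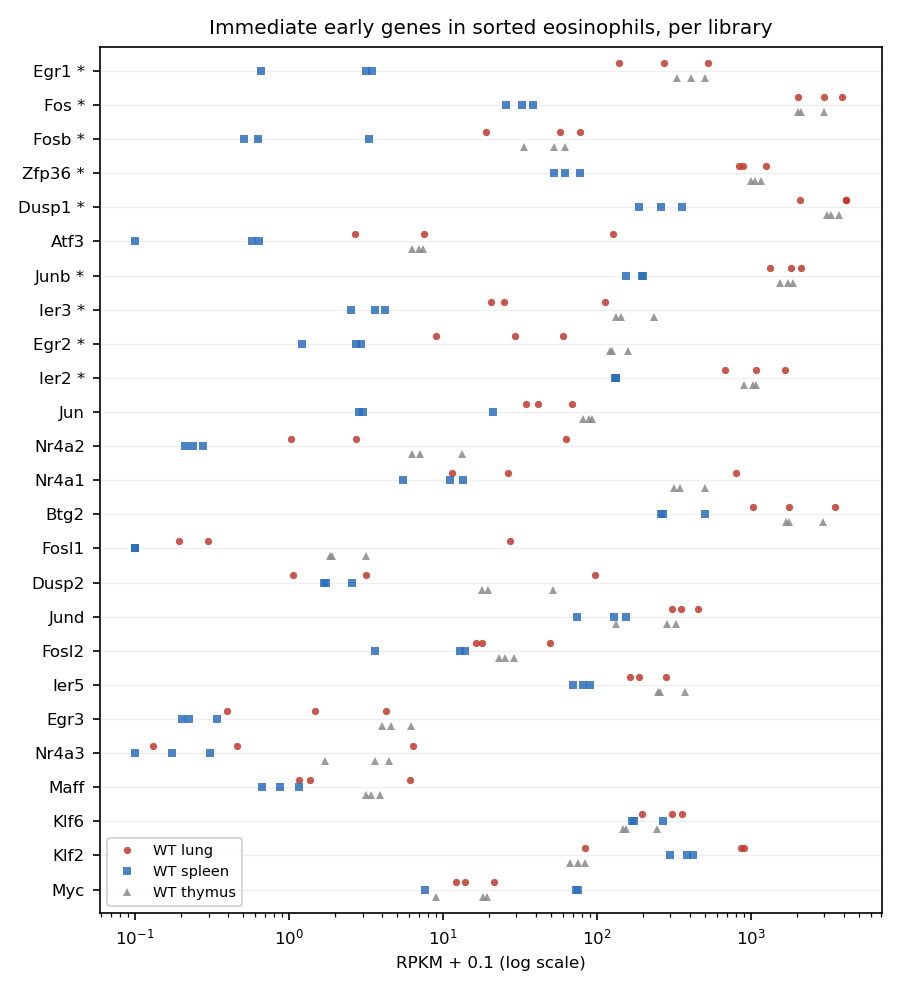
RPKM + 0.1 of the 25 tested immediate early genes on a log axis, 1 point a library, with WT lung above WT spleen and WT thymus in each row and an asterisk at the 9 called genes. Fos lies at 2017 to 3881 RPKM in lung and 25.6 to 38.1 RPKM in spleen. The thymus points lie with the lung points for the called genes other than Egr2 and Ier3, whose thymus mean lies above the lung mean.

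The thymus libraries held these genes at levels like those of lung, except for Egr2 and Ier3, which were higher in thymus than in lung. On the scale where spleen is 0 and lung is 1, the thymus mean lay at 0.954 to 1.76 for the 9 called immediate early genes, with a median of 1.03, so that all 9 were nearer to lung. Fos, for example, had 2117, 2012 and 2980 RPKM in thymus. For the 17 called genes of the lung endothelial, epithelial, mesenchymal and vascular lists the thymus lay at -0.107 to 0.206, and all 17 were nearer to spleen. Of these 17, 15 reached the filter only through the lung libraries. Their thymus values had to lie under 1 RPKM, so that their place near spleen was set by the filter and is no finding. Of the 30 other genes higher in lung, 7 were nearer to lung, among them Cxcl2, Ppp1r15a, Ccl3, Cebpb, Tmem88 and Cxcr4. Among these 30, 19 also reached the filter only through the lung libraries, with the same limit. Digestion was shared by lung and thymus, and its part in these values was not tested.

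**Figure D3:**
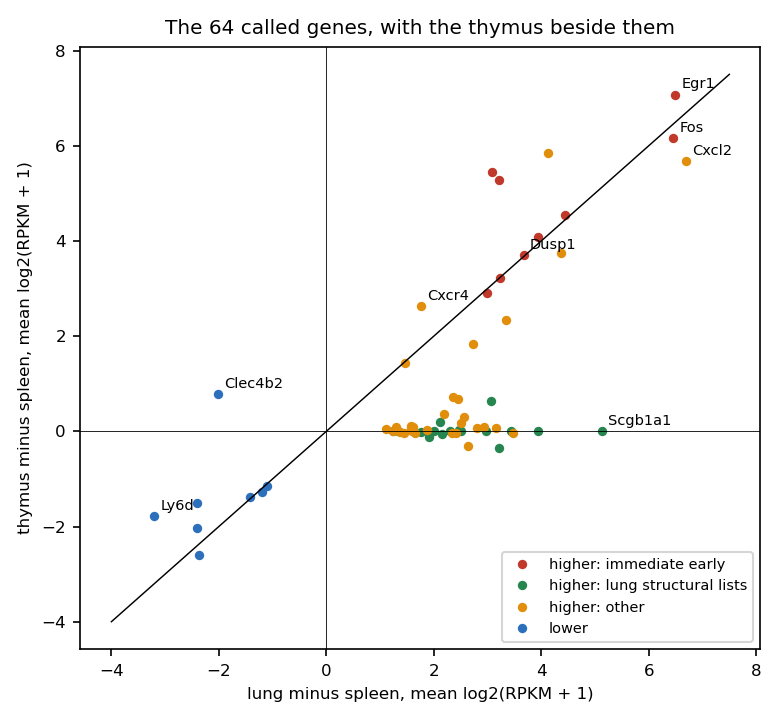
Thymus minus spleen against lung minus spleen in mean log2(RPKM + 1) for the 64 called genes, 1 point a gene, where the diagonal marks equal values in thymus and lung. The 9 immediate early genes lie near or above the diagonal, at positions of 0.954 to 1.76 where spleen is 0 and lung is 1, and the 17 lung structural genes lie near 0, at -0.107 to 0.206. For 15 of these 17 the filter set this, since they reached it only through the lung libraries.

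The promoters of 4 genes higher in lung are shown. Dusp1 and Ppp1r15a were chosen after the search as the genes that hold the cAMP response element, and Fos and Junb are given beside them as called immediate early genes without any of the motifs searched. Each runs from 250 bases before to 50 after the start of the gene (RefSeq, GRCm38.p6), and capitals mark that element, TGACGTCA. Dusp1 lies at chr17:26508423-26508722 on the minus strand, Ppp1r15a at chr7:45526219-45526518 on the minus strand, Fos at chr12:85473640-85473939 on the plus strand and Junb at chr8:84978699-84978998 on the minus strand.
Dusp1: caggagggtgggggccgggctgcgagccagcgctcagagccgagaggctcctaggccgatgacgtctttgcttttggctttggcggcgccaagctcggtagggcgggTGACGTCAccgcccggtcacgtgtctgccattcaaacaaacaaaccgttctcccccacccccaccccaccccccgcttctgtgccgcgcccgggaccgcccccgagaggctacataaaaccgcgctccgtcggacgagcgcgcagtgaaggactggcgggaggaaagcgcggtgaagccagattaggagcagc
Ppp1r15a: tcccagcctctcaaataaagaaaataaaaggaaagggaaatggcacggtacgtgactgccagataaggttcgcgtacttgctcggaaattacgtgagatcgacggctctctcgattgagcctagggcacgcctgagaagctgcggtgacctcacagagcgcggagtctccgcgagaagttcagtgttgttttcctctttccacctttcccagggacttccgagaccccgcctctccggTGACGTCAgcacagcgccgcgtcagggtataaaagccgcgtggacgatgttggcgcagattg
Fos: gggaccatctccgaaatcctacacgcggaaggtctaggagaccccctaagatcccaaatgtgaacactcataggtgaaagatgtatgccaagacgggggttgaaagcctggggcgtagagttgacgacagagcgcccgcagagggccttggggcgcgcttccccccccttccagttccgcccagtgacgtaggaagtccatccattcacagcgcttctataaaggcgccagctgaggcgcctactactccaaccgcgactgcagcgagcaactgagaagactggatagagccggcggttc
Junb: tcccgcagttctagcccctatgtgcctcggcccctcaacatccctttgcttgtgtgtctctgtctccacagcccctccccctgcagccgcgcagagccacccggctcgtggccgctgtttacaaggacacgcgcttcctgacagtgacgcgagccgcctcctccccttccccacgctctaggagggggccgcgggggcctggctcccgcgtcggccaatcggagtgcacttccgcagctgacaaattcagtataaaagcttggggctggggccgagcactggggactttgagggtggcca
A promoter was matched for 34 of the 56 genes higher in lung and for 7 of the 9 immediate early genes. The cAMP response element, searched on both strands, was present in 2 of the 34 genes (5.88%), namely Dusp1 and Ppp1r15a, and in 2.03% of all genes of the table. The AP-1 motif TGANTCA was present in 2 of the 34 (5.88%) and in 8.97% of all genes, and in 0 of the 7 immediate early genes matched. The hypoxia element ACGTG was present in 8 of the 34 (23.5%) and in 21.8% of all genes. A match in these letters is a description of the window only.

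The chemokines Cxcl2 and Ccl3 were higher in lung with a wide spread. The chemokine Cxcl2 (chromosome 5, 90903871 to 90905938), which attracts neutrophils through Cxcr2, had the largest change of all called genes, with 27.7, 104 and 745 RPKM in lung and 0, 0 and 1.02 RPKM in spleen (log2 fold change 6.69 ± 0.95, adjusted p = 0.0121). Ccl3, a chemokine that attracts leukocytes, had 16.7, 43.6 and 155 RPKM in lung and 1.12, 2.82 and 1.92 RPKM in spleen (log2 fold change 4.12, adjusted p = 0.0229). In both genes lung replicate 3 was the highest library and lung replicate 1 the lowest. These were the 2 called of 8 tested chemokine ligands, and the median change of the list was 0.81. The list had 0 calls without spleen replicate 1, without spleen replicate 2 or without lung replicate 2, 1 call without each thymus library, and 2 calls without spleen replicate 3, lung replicate 1 or lung replicate 3. By limma-voom on recovered reads and by the Dunnett comparisons on RPKM it had 0 calls. Ccl6, the chemokine with the highest level in both organs, was at 10437 to 12012 RPKM in lung and 8428 to 15166 RPKM in spleen and was not called (adjusted p = 0.986).

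The bZIP factor Cebpb, a regulator of myeloid inflammatory genes, had 297, 371 and 455 RPKM in lung and 40.6, 57.2 and 19.3 RPKM in spleen (log2 fold change 3.34, adjusted p = 0.0108). Ppp1r15a (GADD34), which restores translation after stress, had 38.3, 137 and 224 RPKM in lung and 4.25, 4.86 and 3.43 RPKM in spleen (log2 fold change 4.38, adjusted p = 0.00759). Neither gene's values overlapped between the organs. Cxcr4, the receptor of Cxcl12, had 169, 121 and 114 RPKM in lung and 34.0, 29.4 and 55.8 RPKM in spleen (log2 fold change 1.77 ± 0.30, adjusted p = 0.0287). It was the 1 called of 15 tested chemoattractant receptors, and its call remained in 1 of the 9 fits without a library, that without spleen replicate 3. Adjusted p over the fits without a library ranged up to 0.0896 for Cxcl2, 0.173 for Ccl3, 0.125 for Cebpb, 0.0757 for Ppp1r15a and 0.258 for Cxcr4.

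Osm, Il1b, Nfkbia and Nfkbiz were highest in lung replicate 3 and were not called. Osm, an interleukin-6 family cytokine, had 63.6, 123 and 632 RPKM in lung and 9.41, 11.1 and 2.40 RPKM in spleen (log2 fold change 4.51, adjusted p = 0.0539). Il1b had 23.5, 104 and 1251 RPKM in lung and 63.3, 32.7 and 17.6 RPKM in spleen (adjusted p = 0.933), so that the organs overlapped. Among 13 tested cytokines 0 were called by limma, limma-voom or the Dunnett comparisons, with 4 higher at an unadjusted p under 0.05. Their median change was 0.39. Every lung library was above every spleen library for 5 of the 13, and for 4.23% of all genes tested. Of the 13, 1 reached the filter only through the lung libraries and 1 only through the spleen libraries. Among 15 tested NF-kB pathway genes 0 were called by these tests, with 4 higher at an unadjusted p under 0.05 and a median change of 0.61. Their inhibitor Nfkbia had 193, 405 and 2100 RPKM in lung and 105, 109 and 92.6 RPKM in spleen (log2 fold change 2.42, adjusted p = 0.374), and Nfkbiz had 4.23, 7.53 and 331 RPKM in lung and 0.372, 0.602 and 0.355 RPKM in spleen (adjusted p = 0.455). In replicates 1 and 2 alone, Osm (adjusted p = 0.00034), Nfkbia (0.0262) and Nfkbiz (0.00223) were called higher in lung.

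Genes of the lung structural and vascular lists were 17 of the 56 genes higher in lung. In bulk samples fewer cells of a type and less RNA per cell cannot be told apart. Of the 22 lung endothelial genes, 12 were tested and 8 were higher in lung (Plvap, Cav1, Cldn5, Ramp2, Tspan7, Clec14a, Egfl7 and Esam). Of the 22 epithelial genes 6 were tested and 2 were higher (Scgb1a1 and Sftpc), of the 20 fibroblast and mural genes 4 and 2 (Inmt and Sparc), and of the 20 vascular development genes 8 and 5 (Acvrl1, Epas1, Eng, Sox18 and Sox7). Of these tested members 8, 3, 3 and 5, in this order of lists, reached the filter only through the lung libraries, so that they had to differ, and the counts are no measure of the lists as a whole. Across these 17 genes the libraries ran from 1.09 to 54.8 RPKM in lung, with a median of 5.10, and from 0 to 1.04 RPKM in spleen, with a median of 0.

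The secretoglobin Scgb1a1 (chromosome 19, 9083636 to 9087958), made by airway club cells, had 18.2, 39.1 and 54.8 RPKM in lung, which is 50, 102 and 138 reads, and 0 in every spleen library. Its lung mean was at least 32.5-fold higher than 3 reads per spleen library would give, and its adjusted p was 0.000202. Surfactant protein C (Sftpc, chromosome 14, 70520949 to 70524081), the mark of alveolar type II cells, had 8.09, 6.21 and 53.9 RPKM in lung and 0 in spleen (at least 32.9-fold higher, adjusted p = 0.0232). Lung replicate 3 held most of the Sftpc signal. Plvap, which forms the diaphragms of capillary endothelium, had 22.1, 6.06 and 6.85 RPKM in lung and 0 in spleen (at least 42.4-fold higher, adjusted p = 0.00525). The tight-junction gene Cldn5 had 7.21, 3.22 and 13.1 RPKM in lung and 0 in spleen (at least 20.3-fold higher, adjusted p = 0.00684). Inmt, a methyltransferase of lung mesenchyme, had 6.27, 6.77 and 9.30 RPKM in lung and 0 in spleen (at least 14.7-fold higher, adjusted p = 0.002), and was the 1 of the 17 called in every fit without a library. Cyp4b1, a lung cytochrome P450, had 16.6, 2.58 and 22.2 RPKM in lung and 0.0835, 0 and 0 RPKM in spleen (adjusted p = 0.0274), and was called in 0 of the 6 such fits in which it was tested. Cyp4b1 is on none of these lists and also reached the filter only through the lung libraries, so that it had to differ.

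The vascular development genes rested on few reads. Sox18, an endothelial transcription factor, had 20, 12 and 10 reads in lung (2.14, 1.35 and 1.17 RPKM) and 0 in spleen, which is at least 4.59-fold higher (adjusted p = 0.0198). Its relative Sox7 had 36, 22 and 19 reads in lung and 0 in spleen (at least 8.43-fold higher, adjusted p = 0.0231). Endoglin (Eng), a co-receptor of TGF-beta and BMP, had 3.28, 1.95 and 2.44 RPKM in lung and 0.0939, 0 and 0 RPKM in spleen (log2 fold change 1.77, adjusted p = 0.00531). Acvrl1, the endothelial receptor that acts with endoglin, had 5.10, 1.37 and 6.28 RPKM in lung and 0.214, 0 and 0 RPKM in spleen (adjusted p = 0.0385), and Epas1 (HIF-2alpha) had 5.43, 3.44 and 1.40 RPKM in lung and 0.062, 0 and 0 RPKM in spleen (adjusted p = 0.0236). Each of these genes was thus near 0 in spleen, with the lung libraries at 1.09 to 6.28 RPKM.

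Of 27 TGF-beta and BMP pathway genes 17 were tested, and 3 were higher in lung (Id3, Acvrl1 and Eng) at a list median of 0.17. Of the 17, 3 reached the filter only through the lung libraries and had to differ, so the count higher is no measure of the list. In the other direction 3 genes had an unadjusted p under 0.05 and every lung library below every spleen library. Over all genes tested, 6.38% had every lung library below every spleen library. None of the 3 passed the adjusted threshold by limma, while the Dunnett comparisons called 2 genes of the list lower. The 3 genes were the receptor Tgfbr1, with 24.8, 20.1 and 12.99 RPKM in lung and 47.0, 42.6 and 38.1 RPKM in spleen (adjusted p = 0.226), and the inhibitors of differentiation Id1 and Id2 (adjusted p = 0.583 and 0.607). The list summed to 842, 725 and 475 RPKM in lung and 1016, 1023 and 846 RPKM in spleen, without overlap (exact permutation test, two-sided p = 0.1, the smallest possible). This lower sum does not describe the list as a whole, since the fitted change was positive for 11 of the 17 tested. The members with the highest levels were Id2, Tgfbi, Id1 and Tgfb1, and Tgfbi had means of 250.5 RPKM in lung and 216.4 RPKM in spleen. Without each lung library 0 genes of the list were called higher, and without each other library 1. Among the 23 other called genes that lay nearer to spleen in thymus were the water channel Aqp1, the mesenchymal factor Foxf1, the lymphatic hyaluronan receptor Lyve1, the capillary lipase anchor Gpihbp1 and the surface proteins Ly6a and Ly6c1. Ly6c1 shares reads with the near-identical Ly6c2, which makes its value uncertain. Foxf1 had 5.16, 3.85 and 3.60 RPKM in lung and 0, 0.0688 and 0 RPKM in spleen (adjusted p = 0.000768). It reached the filter only through the lung libraries, so that it had to differ. All 35 genes higher in lung with a mean under 10 RPKM had 14.1 RPKM or less in every lung library.

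Markers of other cells are given for the whole lists. The 22 endothelial genes summed to 182, 99.3 and 183 RPKM in lung and 65.7, 63.6 and 36.1 RPKM in spleen, and 8 of them were at 0 in all spleen libraries. Pecam1 and Icam2, which belong to that list, were at 7.01 to 22.1 and 41.9 to 59.8 RPKM in lung and 1.42 to 21.9 and 27.9 to 43.5 RPKM in spleen and were not called. VE-cadherin (Cdh5), also of that list, was at 2.14, 0.607 and 0.72 RPKM in lung and 0 in spleen, and did not pass the filter. The 22 epithelial genes summed to 100, 98.9 and 485 RPKM in lung and 41.1, 39.5 and 378 RPKM in spleen. In replicate 3 of both organs that sum was mostly Napsa, at 309 RPKM in lung and 363 RPKM in spleen. Of the 22, 17 were at 0 in all spleen libraries and 2 in all lung libraries. The 20 fibroblast and mural genes summed to 48.8, 16.6 and 61.4 RPKM in lung and 6.15, 4.38 and 3.25 RPKM in spleen. Lung replicate 2 had the lowest sum of the lung libraries in all 3 lists. The part of RNA from such cells in the lung calls was not tested. The endothelial count fell to 0, 2 and 1 without lung replicate 1, 2 and 3, where most of the list no longer passed the filter, and was 4 to 9 without each other library. The epithelial and vascular counts were 0 without each lung library. Without each thymus library and without spleen replicate 1 or 2 the epithelial count was 1 and the vascular count 1 or 2. The fibroblast and mural count was 2 without spleen replicate 3 or lung replicate 2 and 1 without each other library.

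**Figure D4:**
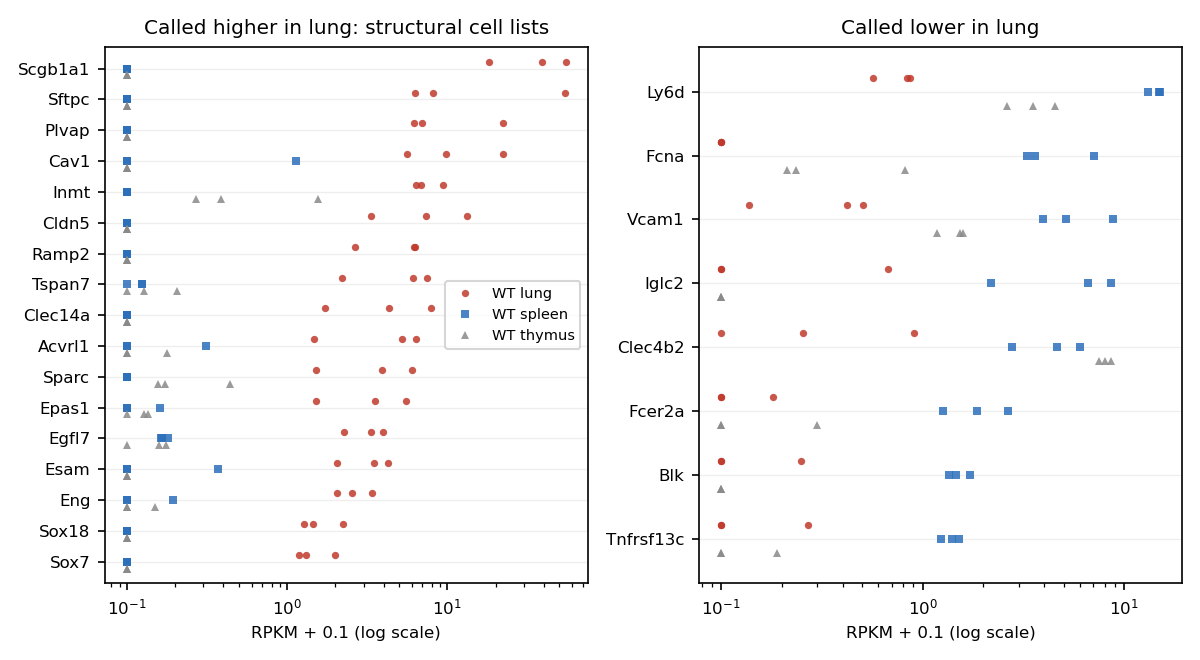
RPKM + 0.1 on a log axis, 1 point a library, for the 17 called genes of the structural and vascular lists (left) and the 8 genes lower in lung (right), with WT lung above WT spleen and WT thymus in each row. Scgb1a1 lies at 18.2 to 54.8 RPKM in lung and at 0 in spleen and thymus, and Ly6d at 0.465 to 0.762 RPKM in lung and 12.98 to 14.95 RPKM in spleen.

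Lower expression in lung was found for 8 genes, of which 7 had a spleen mean under 10 RPKM. Ly6d (chromosome 15, 74762056 to 74763620), a surface protein of B lineage cells, had 0.465, 0.735 and 0.762 RPKM in lung, which is 2, 3 and 3 reads, and 14.7, 14.95 and 12.98 RPKM in spleen. It showed the largest decrease, with a mean of 0.654 ± 0.164 RPKM in lung and 14.2 ± 1.08 RPKM in spleen (SD, n = 3 each), a log2 fold change of -3.20 ± 0.26 and an adjusted p of 0.000509, and it was called in all 9 fits without a library. Fcer2a (CD23), a B cell receptor for IgE, had 0, 0 and 0.0801 RPKM in lung and 2.54, 1.76 and 1.16 RPKM in spleen (adjusted p = 0.0236). The B cell kinase Blk had 0.149, 0 and 0 RPKM in lung and 1.25, 1.36 and 1.62 RPKM in spleen (adjusted p = 0.0209). Both were low in spleen as well, with spleen libraries at 1.16 RPKM or above, and reached the filter only through these libraries.

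Tnfrsf13c and Iglc2 are on no list. Both reached the filter only through the spleen libraries, so that they had to differ. Tnfrsf13c, the receptor of the B cell survival factor BAFF, had 0.169, 0 and 0 RPKM in lung and 1.42, 1.30 and 1.13 RPKM in spleen (adjusted p = 0.0289). Iglc2, an immunoglobulin light chain constant gene whose reads can be shared with its copies, had 0.571, 0 and 0 RPKM in lung and 6.49, 8.49 and 2.08 RPKM in spleen (adjusted p = 0.0278). Of 20 B cell genes, 7 were tested and 3 were lower in lung (Ly6d, Fcer2a and Blk). Of the 7, 3 reached the filter only through the spleen libraries and had to differ, so the count is no measure of the list. The B cell list summed to 81.4, 74.6 and 58.6 RPKM in lung and 212, 171 and 54.7 RPKM in spleen, so that spleen replicate 3 lay with the lung libraries. Bank1, at 51.0 to 68.9 RPKM in lung and 27.2 to 86.2 RPKM in spleen, made up most of the lung sum. The part of RNA from B cells in the spleen values was not tested. The B cell receptor subunit Cd79a had 5.23, 2.50 and 4.02 RPKM in lung and 21.8, 13.6 and 6.05 RPKM in spleen (adjusted p = 0.419), and Cd22 had under 0.1 RPKM in lung and 45.7, 20.8 and 0.5 RPKM in spleen and did not pass the filter. The list count was also 3 without spleen replicate 3, but with other genes, Ly6d, Cd79a and Cd79b, since Fcer2a and Blk then failed the filter. It was 2 without thymus replicate 3 and 1 without each other library.

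The others among the 8 were Vcam1, an adhesion molecule of the red pulp macrophage list, and Fcna, a ficolin, and Clec4b2, which are on no list. Vcam1 had 0.407, 0.322 and 0.037 RPKM in lung and 5.06, 3.87 and 8.68 RPKM in spleen (log2 fold change -2.40 ± 0.29, adjusted p = 0.00582). Fcna had 0 reads in every lung library and 56, 29 and 21 reads in spleen, where its mean was at least 11.5-fold higher in spleen (adjusted p = 0.00584). It reached the filter only through the spleen libraries and so had to differ. The C-type lectin Clec4b2 had 0, 0.155 and 0.805 RPKM in lung and 4.52, 2.69 and 5.90 RPKM in spleen (adjusted p = 0.0231), and in thymus it was higher still, at 7.42 to 8.46 RPKM. The other 7 genes lower in lung were nearer to lung than to spleen in thymus. For 5 of them, Fcer2a, Blk, Tnfrsf13c, Iglc2 and Fcna, the filter set this. They reached it only through the spleen libraries and so had to lie under 1 RPKM in thymus. On the scale where spleen is 0 and lung is 1, Vcam1 lay at 0.625 and Ly6d at 0.558.

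Of 15 red pulp macrophage genes 8 were tested, 1 was lower in lung, and the median change was -1.62. Over all genes tested, 0.088% were lower. Of the 8, 1 reached the filter only through the spleen libraries. In replicates 1 and 2 alone 5 of the 8 were lower, where 1.15% of all genes were lower. The complement gene C1qa had 0.166, 0 and 9.27 RPKM in lung and 9.21, 7.98 and 32.9 RPKM in spleen (log2 fold change -2.67, adjusted p = 0.589), and C1qc was at 0, 0.152 and 5.97 RPKM in lung and 11.2, 6.07 and 19.5 RPKM in spleen (adjusted p = 0.503). Within each replicate number both were lower in lung, and with the block they were called, at adjusted p = 0.0122 for C1qa and 0.0194 for C1qc. The list summed to 250, 204 and 238 RPKM in lung and 401, 325 and 302 RPKM in spleen. The list had 0 calls without lung replicate 1 or 2, where Vcam1 had an adjusted p up to 0.0592, and 1 call without each other library.

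Genes that define eosinophils did not separate the organs at this replication. None of 15 tested identity genes was called in either direction by limma, also with the block, nor by limma-voom or the Dunnett comparisons, and 0 had an unadjusted p under 0.05. The 15 include Siglecf and Itgam, which belong to the gate and so are no finding. The median change of the list was 0.11, and its summed level was 3759, 3334 and 2625 RPKM in lung and 3707, 3739 and 2436 RPKM in spleen. The eotaxin receptor Ccr3 had 839, 734 and 506 RPKM in lung and 826, 775 and 1185 RPKM in spleen (log2 fold change -0.43 ± 0.29, adjusted p = 0.933). The sorting marker Siglecf had 217, 211 and 216 RPKM in lung and 254, 288 and 73.4 RPKM in spleen (adjusted p = 0.933). The interleukin-5 receptor Il5ra had 63.1, 72.2 and 36.6 RPKM in lung and 54.4, 69.7 and 7.98 RPKM in spleen (adjusted p = 0.933). Spleen replicate 3 was the highest library for Ccr3 and the lowest for Siglecf and Il5ra. Lung replicate 3 was the lowest library for Ccr3 and the lowest lung library for Il5ra.

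Granule genes did not pass the test. Epx (eosinophil peroxidase) was at 0.708, 0.271 and 0.281 RPKM in lung and 1.08, 0.617 and 0.078 RPKM in spleen, and Prg2 (major basic protein) was at 50.8, 45.2 and 36.8 RPKM in lung and 41.6, 32.9 and 206 RPKM in spleen (adjusted p = 0.967 and 0.933). Alox15, the lipoxygenase with the highest level of the list, had 1259, 1132 and 749 RPKM in lung and 1263, 1198 and 236 RPKM in spleen (adjusted p = 0.933). Of the type 2 cytokines, Il4 had 49.7, 79.6 and 56.3 RPKM in lung and 46.1, 58.8 and 74.7 RPKM in spleen (adjusted p = 0.991), Il13 stayed under 0.5 RPKM and Il5 was at 0 in all 6 libraries. In replicates 1 and 2 alone 1 identity gene was called, Prg3 (major basic protein 2), with 9.12 and 8.07 RPKM in lung and 3.79 and 3.32 RPKM in spleen (adjusted p = 0.0358).

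The other function lists had 0 calls in either direction by limma, namely integrins and selectin ligands (21 tested, median change 0.43), cytokine receptors (24, 0.38), heat shock and chaperone genes (13, 0.41), glycolysis and hypoxia response (25, 0.20), interferon-stimulated genes (21, 0.35), the Bcl-2 family (14, 0.31) and the leukotriene and prostaglandin pathway (17, 0.05). At an unadjusted p under 0.05 each of these lists had at most 2 genes higher and at most 2 lower. Of these lists limma-voom called 0 genes, and the Dunnett comparisons called 1 integrin list gene higher, 1 cytokine receptor higher and 1 lower, 1 glycolysis list gene higher and 1 leukotriene pathway gene lower. With the block and in replicates 1 and 2, limma called 1 cytokine receptor higher. Without spleen replicate 3 and in replicates 1 and 2, 1 integrin list gene was lower. Replicates 1 and 2 also gave 1 heat shock or chaperone gene lower, and 2 leukotriene pathway genes higher and 1 lower. Marker lists of T cells, NK cells, basophils and mast cells, dendritic cells, erythroid cells, platelets, alveolar macrophages, neutrophils and mitochondrially encoded genes also had 0 calls by limma, with at most 2 genes at an unadjusted p under 0.05 in either direction in each list, and monocytes had 1 call, Ly6c1. Other fits by limma gave calls in some of them. The neutrophil list had 3 of 13 tested genes higher in lung without spleen replicate 3 and 5 of 9 in replicates 1 and 2 (Cxcr2, Csf3r, S100a8, S100a9 and Stfa2l1), and 1 of 14 with the block (Csf3r). Over all genes, 0.698% were higher without spleen replicate 3, 0.922% in replicates 1 and 2 and 0.77% with the block. The alveolar macrophage list had 1 with the block (Car4) and 1 in replicates 1 and 2 (Chil3), the erythroid list 1 without spleen replicate 3 and 2 in replicates 1 and 2, all higher, and the dendritic cell list 2 lower in replicates 1 and 2. Of the lists at 0 calls limma-voom also called 0 genes, and the Dunnett comparisons called 1 neutrophil gene and 1 basophil or mast cell gene higher and 2 dendritic cell genes lower in lung. T cell genes summed to 0.913 to 1.97 RPKM in lung and 1.64 to 4.41 RPKM in spleen. NK cell genes summed to 2.51, 2.36 and 41.8 RPKM in lung and 3.27, 4.04 and 297 RPKM in spleen.

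Adamdec1, Itgax, Cd34 and Pilra were above every lung library in spleen replicates 1 and 2, with spleen replicate 3 far below these. Adamdec1 and Pilra were chosen after their values were seen, whereas Itgax and Cd34 are genes the study names. Adamdec1, a secreted metalloprotease-like protein, had 14.3, 18.8 and 14.5 RPKM in lung and 420, 244 and 23.4 RPKM in spleen (log2 fold change -3.02 ± 0.87, adjusted p = 0.372). Without spleen replicate 3 its log2 fold change was -4.26 and it was called. Itgax (CD11c) had 5.23, 2.65 and 6.06 RPKM in lung and 44.2, 24.8 and 1.94 RPKM in spleen (log2 fold change -1.47, adjusted p = 0.933, and -2.65 with a call without spleen replicate 3). Its lung and spleen values overlapped because spleen replicate 3 was the lowest of all 6 libraries. The progenitor antigen Cd34 had 3.91, 3.21 and 5.50 RPKM in lung and 20.7, 8.84 and 2.73 RPKM in spleen (adjusted p = 0.933). The inhibitory receptor Pilra had 5.42, 5.39 and 11.9 RPKM in lung and 71.8, 36.7 and 7.29 RPKM in spleen (adjusted p = 0.77). The interleukin-1 receptor antagonist Il1rn, also named by the study, had 34.4, 22.4 and 113 RPKM in lung and 116, 80.9 and 72.3 RPKM in spleen (adjusted p = 0.933), with lung replicate 3 among the spleen values.

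In replicates 1 and 2 alone, 8783 genes were tested, 81 were higher in lung (0.922%) and 101 were lower (1.15%), and Adamdec1, Itgax, Cd34, Il1rn, Pilra and Myc were among the lower ones. Of the 64 calls of all libraries, 24 were made there too and 40 could not be tested, because a gene of 1 organ cannot reach 1 RPKM in 3 of these libraries with 2 libraries of that organ. The genes S100a8 and S100a9 differed in opposite directions between replicates 1 and 2 and replicate 3. S100a8 had 190 and 257 RPKM in lung and 16.2 and 12.6 RPKM in spleen in replicates 1 and 2, and 404 RPKM in lung and 18344 RPKM in spleen in replicate 3 (adjusted p = 0.965 over all libraries). The granule genes Camp and Elane had 3094 and 1000 RPKM in spleen replicate 3 and under 2 RPKM in the other 5 libraries.

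**Figure D5:**
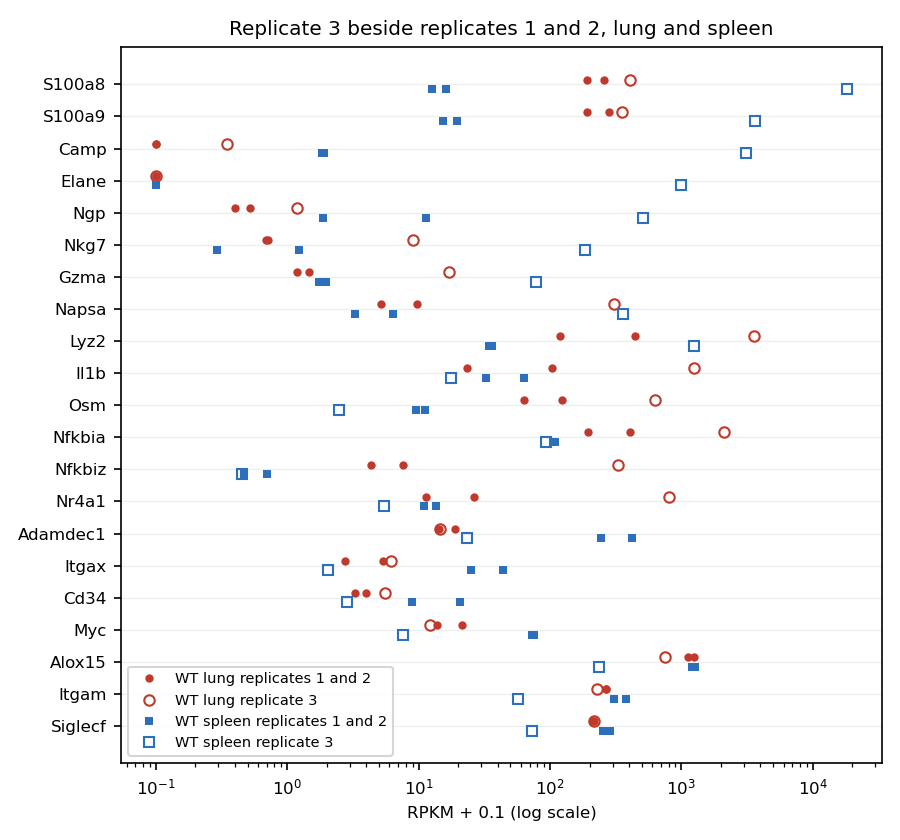
RPKM + 0.1 on a log axis for 21 genes chosen after their values were seen, with WT lung above WT spleen in each row, filled points for replicates 1 and 2 and open points for replicate 3. Camp lies at 3094 RPKM in spleen replicate 3 alone, Il1b at 1251 RPKM in lung replicate 3, and Adamdec1 at 244 to 420 RPKM in spleen replicates 1 and 2 and 14.3 to 23.4 RPKM in the other libraries.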

How the data were processed

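Per the labels and the study's methods, RNA of sorted eosinophils was made into cDNA with SMART-seq v4 and sequenced on an Ion Proton. The authors deposited 1 table of RPKM values per gene, made in CLC Genomics Workbench against mm10 (build named in the submitters' processing notes). How multi-mapping reads and strand were treated is not given in the sources used here, and RPKM shares move when a few genes take many reads. Whole reads and library totals were recovered from the RPKM steps (tolerance 0.001), with the annotated length for 5888 genes and a length found from the values for 11178 genes, where the true length may be a multiple. Coordinates and lengths are from GENCODE on GRCm38, the assembly of mm10. Genes with at least 1 RPKM in 3 of the 9 wild-type libraries were kept. Values were fitted as log2(RPKM + 1) with limma 3.58.1 (R 4.3.3) with a trend, all 3 organs in 1 fit to share the spread (6 residual degrees of freedom), and tested for lung minus spleen with Benjamini-Hochberg adjustment. A fold change on this scale understates the change of low genes. This differs from the study's Dunnett comparisons on RPKM, which were run as an alternative. The test was tried on simulated data. Same-numbered lung and spleen libraries deviated together from their group means (correlations 0.31 to 0.425 across genes, all 3 organs 0.31 to 0.578). Libraries of different number were at -0.428 to 0.287 (all 3 organs -0.538 to 0.423). Lung replicate 1 with spleen replicate 2 was at 0.287, and lung replicate 2 with spleen replicate 1 at 0.26. The values thus set replicate 3 apart but hardly tell numbers 1 and 2 from each other. The main fit used no pairs, and a fit with the replicate number as a block was made as an alternative. Pairs of replicates differed by more than sampling noise (chi-square per degree of freedom 10.2 to 287) and none were identical. Given in full were genes called, non-overlapping and at a mean of 10 RPKM or more in the higher organ, up to 15 in each direction, every gene lower in lung, called list members, the list members of highest level and genes the study names. The 30 gene lists (510 of 511 genes in the table) and these rules were chosen with earlier results of these data known. Intervals on reads and floors of 3 reads cover counting error only. Some genes are not reported here. Columns of the Rag-KO libraries entered only the fit of all 13 libraries.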

Additional observations from a re-analysis of the deposited data

How the results depend on the processing

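The count of genes higher in lung (56) and lower in lung (8) stayed within 1.5 times under a pseudocount of 0.5, no filter, a filter on the 6 lung and spleen libraries, quantile and upper-quartile scaling, removal of mitochondrially encoded genes, no trend, no fold limit and the fit of all 13 libraries. Other settings moved at least 1 of the counts. The counts higher and lower were 20 and 2 with a pseudocount of 5, 18 and 1 with a filter at an RPKM of 5, 97 and 68 with the Dunnett comparisons on RPKM, and 11 and 1 with the 6 lung and spleen libraries alone. The lower count was 4 with a pseudocount of 0.1, 4 with limma-voom on recovered reads, 14 with the replicate block (replicate number as a term), 27 with a term for replicate 3 and 101 in replicates 1 and 2, where the higher counts were 53, 40, 70, 81 and 81. Leaving out 1 library at a time gave 11 to 63 higher and 1 to 27 lower genes. All 64 called genes kept their direction in every setting in which they were tested, and 8 were called without each library in turn (Dusp1, Egr1, Fos, Ier2, Inmt, Junb, Ly6d and Zfp36). The block ended the call of Id3 and of no other gene. The median change over all genes moved by -0.26 without spleen replicate 3, by 0.15 without spleen replicate 2 and by -0.18 in replicates 1 and 2 alone (log2). The mitochondrial share, at -4.40 percentage points for lung minus spleen, ranged over -7.83 to 1.70 without 1 library, and was positive only without spleen replicate 3. The cause of these changes was not tested, apart from genes that fail the filter when a lung library is left out. At this depth 3 reads of a 2000-base transcript are 0.249 to 0.315 RPKM, which limits the genes near 1 RPKM.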
